A study of Mus musculus with 22 samples.

Results

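Glu6 is a neuron type of the deposited annotation of hypothalamic nuclei, and its nuclei were taken as every nucleus that the metadata label Glu6. They numbered 349 of 24965 nuclei, or 1.40% of nuclei and 1.80% of the 19416 neuron nuclei. The study named the cluster after Tac1 and Htr2c, and took the label Glu6 from a published set of hypothalamic neurons. The series asked how the hypothalamus of obese, diabetic mice responds to fibroblast growth factor 1 (FGF1), and nuclei were studied by single-nucleus RNA sequencing (snRNA-seq). All mice were male ob/ob mice of 11 weeks, which lack leptin, on Purina chow, with 1 mouse per library from a hypothalamic punch. FGF1 mice received 3 µg of FGF1 by intracerebroventricular (icv) injection, and vehicle mice received PBS the same way and were pair-fed to the FGF1 mice. Mice were killed 24 h (Day 1) or 5 days (Day 5) after the injection. Day 1 held FGF1 mice 1, 2 and 3 and vehicle mice 1, 2 and 3, and Day 5 held FGF1 mice 37 and 45 and vehicle mice 28 and 38. Every mouse was thus leptin-deficient, and no lean group and no freely fed vehicle group stands beside Glu6 here.

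Neurons that release glutamate load it into vesicles with the transporter encoded by Slc17a6 (VGLUT2), the form used in most of the hypothalamus, and neurons that release GABA make it with the enzymes of Gad1 and Gad2 and load it with Slc32a1. Tac1 encodes the precursor of substance P and neurokinin A, peptides of the tachykinin family that are released beside a fast transmitter. Htr2c encodes a serotonin receptor that couples to phospholipase C, known in the hypothalamus for the control of feeding. FGF1 binds all FGF receptors, which signal through the MAPK pathway.

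Glu6 was a thinly sampled type. FGF1 mice 1, 2 and 3 of Day 1 held 99, 45 and 17 Glu6 nuclei and vehicle mice 1, 2 and 3 held 3, 22 and 18. On Day 5, FGF1 mice 37 and 45 held 30 and 59, and vehicle mice 28 and 38 held 50 and 6. A Glu6 nucleus had a median of 2636 unique molecular identifiers (UMIs, counted RNA molecules; range 1382 to 9470) and 1531 genes. The summed Glu6 counts of a mouse ran from 19563 UMIs in vehicle mouse 1 to 245675 in FGF1 mouse 1, so that in vehicle mouse 1 a single UMI equals 51.1 CPM. CPM here is the UMI count of a gene scaled to 1000000 UMIs in the Glu6 nuclei of a mouse, and tests used the 8 mice with at least 10 Glu6 nuclei unless stated. Of the 349 nuclei, 11 carried a barcode sequence also found in another library, none of these in another Glu6 nucleus. FGF1 mouse 1 and vehicle mouse 2 of Day 1 and vehicle mouse 28 of Day 5 stood apart from the other mice. The summed level of 19 genes of oxidative phosphorylation in Glu6 was 4441, 2758 and 2504 CPM in these mice and 1176 to 1729.8 in the other 7. Other neurons of the same mice were set apart likewise, at 4957, 2782 and 2784 CPM against 1433 to 1897.

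The label was checked against its markers. Slc17a6 was at 128 ± 43.0 CPM in Glu6 and 88.9 ± 11.6 CPM in all other neurons (SD, n = 10 mice), and it was higher in Glu6 in 9 of the 10 mice. It ran from 65.3 CPM in vehicle mouse 38 to 218 CPM in FGF1 mouse 37. Glu6 was not rich in this transporter among glutamatergic types: the mean was 168 CPM in Glu5, 199 in Glu4 and 147 in n29, other neuron types of the annotation. Gad2 was at 68.8 ± 57.1 CPM in Glu6 against 166 ± 22.4 in other neurons and Gad1 at 23.4 ± 22.6 against 66.9 ± 7.88. Gad1 was lower than in other neurons in all 10 mice and Gad2 in 9 of 10, with vehicle mouse 38 (6 nuclei) as the exception. The other vesicular glutamate transporters were at or near 0, with Slc17a8 at 4.42 ± 4.39 CPM and no UMI of Slc17a7 in any Glu6 nucleus.

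Tac1 and Htr2c were the more telling genes. Tac1 was at 1514, 617 and 533 CPM in FGF1 mice 1, 2 and 3 and at 102, 1310.2 and 354 CPM in vehicle mice 1, 2 and 3 of Day 1. On Day 5 it was at 753 and 1136 CPM in FGF1 mice 37 and 45 and 1108 and 457 CPM in vehicle mice 28 and 38. Tac1 thus spread widely between mice and the treatment groups overlapped. The mice that stood apart and FGF1 mouse 45 held the most, and other neurons of FGF1 mouse 1 and vehicle mouse 2 also held the most Tac1 among mice, at 205 and 225 CPM. The part of these libraries in the spread was not tested. Htr2c was steadier, at 883, 935 and 999.7 CPM in the Day 1 FGF1 mice, 1278, 979 and 796 CPM in the Day 1 vehicle mice, 1740.3 and 1559 CPM in the Day 5 FGF1 mice and 1255 and 1109.7 CPM in the Day 5 vehicle mice. Every mouse had more Htr2c in Glu6 than in its other neurons, where the mean was 354 ± 52.5 CPM.

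**Figure D1:**
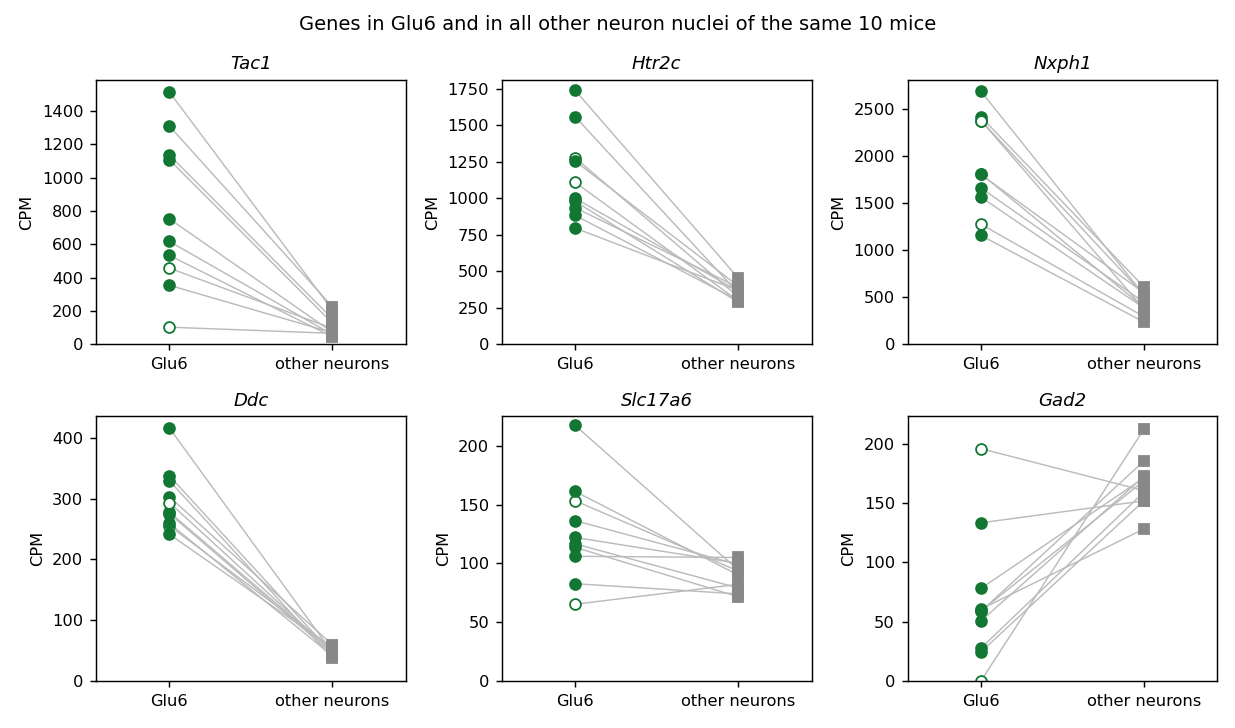
Levels of 6 genes in Glu6 (circles) and in all other neuron nuclei (squares) of the same 10 mice, in CPM on linear axes from 0, with a line joining each mouse and open circles for the 2 mice with fewer than 10 Glu6 nuclei. Tac1, Htr2c, Nxph1 and Ddc are higher in Glu6 in all 10 mice, Slc17a6 in 9, and Gad2 is lower in 9.

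Nucleus by nucleus, 81.4% of Glu6 nuclei held a Tac1 UMI and 86.8% an Htr2c UMI, against 18.3% and 41.6% of other neurons. Tac1 was not particular to Glu6: in n02, a type of 159 nuclei whose published label also names Tac1, 59.7% held a Tac1 UMI and 28.9% an Htr2c UMI, while 76.1% held Gad2 and 4.40% Slc17a6. Both were found together in 259 of 349 Glu6 nuclei (74.2%) and in 8.32% of other neurons. Neither was found in 21 Glu6 nuclei. Thinned to 1382 UMIs per nucleus, the depth of the shallowest Glu6 nucleus, the Tac1 share was 62.5% in Glu6, 41.8% in n02 and 9.66% in astrocytes, which should lack it, and the Htr2c share 70.8% and 5.61%. Median depths before thinning were 2636 UMIs in Glu6 and 2694 in astrocytes. For Slc17a6 the thinned share was 16.0% in Glu6 and 3.85% in astrocytes. For Gad2 it was 5.73% and 10.2%, and for Gad1 1.72% and 7.90%. Over all Glu6 nuclei together, UMIs of both GABA enzymes were thus at background. In vehicle mouse 38, however, 4 of 6 Glu6 nuclei held a Gad2 UMI, or 50% when thinned. Most Glu6 nuclei (187 of 349) held no UMI of Slc17a6, Gad1, Gad2 or Slc32a1, and Tac1 was found in 79.7% of these and in 79.8% of the 109 nuclei with an Slc17a6 UMI. The label itself came from a second step, since nuclei that a first published set did not label with high confidence were passed to other sets. In that first step 328 of the 349 nuclei were given the label n29, and the confidence of the first label over all 349 was 0.159 to 0.747.

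Markers of glia were low in Glu6. Over all Glu6 nuclei together, 9 astrocyte markers summed to 593 CPM (against 14064 in those cells), 8 oligodendrocyte markers to 139 CPM (against 3107 in those cells), 7 tanycyte markers to 292 CPM (against 2509 in those cells), 6 ependymal markers to 94.6 CPM (against 4439 in those cells) and 7 microglial markers to 72.8 CPM (against 953 in those cells). The 7 markers of oligodendrocyte precursors, 5 of endothelial cells and 5 of vascular leptomeningeal cells summed to 22.7, 34.6 and 5.46 CPM. The tanycyte regulators Rax and Lhx2, the endothelial genes Cldn5 and Slco1a4 and the leptomeningeal genes Dcn and Lum had no UMI at all. By mouse, the astrocyte sum was at most 947 CPM in 9 mice and was 2096 CPM in vehicle mouse 1, with its 3 nuclei. That mouse was also highest for markers of oligodendrocytes and of their precursors, each at 307 CPM on 6 UMIs. The other mice were at most at 195 and 39.0 CPM. The 14 markers of other neuron types, mostly peptides such as Agrp, Npy and Pmch, summed to 514 CPM in Glu6 and 1767 CPM in other neurons. The 5 genes of all neurons summed to 18647 CPM, close to the 18887 CPM of other neurons.

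The genes that set Glu6 apart from other neurons were ranked by the ratio of mean CPM over the 10 mice, among genes with at least 50 CPM and a UMI in at least 20% of Glu6 nuclei. Since the nuclei were grouped by such genes, the values describe the type and carry no test. The ratio ran from 16.2 for 4921506M07Rik to 3.00 for Foxp2 in the first 20 genes. All 20 were higher in Glu6 in at least 9 of the 10 mice. Transmitter genes among them were Tac1, with a ratio of 7.08, and Ddc (299 ± 51.7 against 48.0 ± 6.53 CPM), the decarboxylase that makes dopamine and serotonin from their precursors. Ddc was found in 54.7% of Glu6 nuclei and was among the steadiest of the leading genes, between 242 and 417 CPM in every mouse. Receptors were Htr2c and Glra3 (447 ± 166 against 140.3 ± 22.9 CPM), a glycine receptor subunit. Regulators of transcription were Satb1 (160.2 ± 58.8 against 23.5 ± 4.09 CPM), Pbx3 (571 ± 192 against 139 ± 26.6 CPM) and Foxp2 (602 ± 229 against 201 ± 44.5 CPM).

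Several leading genes act at the cell surface or in the matrix around cells. Nxph1, a secreted ligand of neurexins, was at 1917 ± 526 CPM against 433 ± 119 CPM and was found in 96.6% of Glu6 nuclei. Sgcd, a sarcoglycan of the dystrophin complex, was at 1902 ± 319 against 622 ± 105 CPM, and Pard3b, a relative of a cell polarity protein, at 527 ± 119 against 78.7 ± 18.5 CPM. Ndst4, an enzyme that modifies heparan sulfate, was at 348 ± 140.1 against 86.9 ± 13.7 CPM. The metalloproteases Adamts2 and Adam12, the adhesion protein Igsf11, the matrix protein Fras1 and the growth factor Pdgfc were each at 77.1 to 142 CPM in Glu6 and 15.9 to 46.1 CPM in other neurons. Not all of these are lacking in other types: Foxp2 and Nxph1 averaged 822 and 1467 CPM in Glu4, and Fras1 118 CPM in Glu5, and an Nxph1 UMI was found in 80.5% of n02 nuclei. Satb1, Ddc and Pard3b averaged at most 26.4, 51.6 and 84.1 CPM in Glu5, Glu4, n29 and the neurons the study left unmapped.

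In the GENCODE annotation of GRCm38, the build of the files, 2 pairs of leading genes share a locus. The antisense RNA 1700042O10Rik (chromosome 11, 11868123 to 11885321, plus strand) lies inside Ddc (chromosome 11, 11814101 to 11898144, minus strand), and C79798 (chromosome 2, 34287771 to 34304440, plus strand) lies inside Pbx3 (chromosome 2, 34171457 to 34373142, minus strand). Both antisense RNAs were among the 20 with their partners, at 232 ± 126 and 83.1 ± 32.9 CPM in Glu6. The lincRNA Gm28905, described below, also overlaps other noncoding genes on both strands. The 10x 3′ chemistry keeps strand, but how the counting used it is not given in the sources used here. Tac1 (chromosome 6, 7554879 to 7565834, plus strand) overlaps no other annotated gene. Htr2c (chromosome X, 146962513 to 147197277, plus strand) holds small RNA genes on its own strand.

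Outside the leading genes, Glu6 differed from other neurons in the families it shared with them, again as a description. Of hormone receptors, Thrb (thyroid hormone receptor beta) was at 386 ± 90.2 against 189 ± 26.6 CPM and was higher in Glu6 in all 10 mice. Ghr, the growth hormone receptor, went the other way, at 208 ± 92.7 against 336 ± 55.6 CPM. Lepr, the leptin receptor, was at 54.2 ± 36.0 against 31.1 ± 8.74 CPM, with a UMI in a thinned 8.88% of Glu6 nuclei and 0.522% of astrocytes. Of FGF receptors, Fgfr2 was at 382 ± 130.1 against 383 ± 64.8 CPM, Fgfr1 at 75.7 ± 34.1 against 45.1 ± 9.24 and Fgfr3 at 11.8 ± 16.3 against 5.33 ± 2.40. Fgfr1 was higher in Glu6 in 7 of the 10 mice. Fgf13, whose product stays in the cell and acts on sodium channels, was at 506 ± 144 against 324 ± 55.8 CPM and higher in all 10 mice.

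The calcium channel subunit Cacna2d1 was at 1204 ± 204 against 634 ± 89.2 CPM, the protocadherin Pcdh7 at 3086 ± 746 against 1339 ± 210.1 and the GABA receptor subunit Gabra2 at 786 ± 125 against 559 ± 73.6, all higher in Glu6 in all 10 mice. The potassium channel Kcnd2 (1437 ± 388 against 2323 ± 357 CPM), the adhesion gene Cntnap2 (2523 ± 824 against 4447 ± 711), the cadherin Cdh18 (756 ± 209 against 1393 ± 151) and the nuclear receptor Rora (405 ± 98.4 against 695 ± 131) were lower in all 10. Some other transcription factors were scarce in Glu6 and lower still on average over all other neurons. Lmx1a was at 70.3 ± 53.3 against 7.04 ± 2.60 CPM and Nr4a2 at 42.6 ± 45.5 against 2.31 ± 1.13 CPM. An Lmx1a UMI was found in 59 Glu6 nuclei (16.9%) and in 366 other neurons (1.92%), so it was not confined to Glu6. Foxb1 had no UMI in Glu6. Sim1, a regulator of other hypothalamic types, was at 9.74 ± 12.9 CPM against 67.7 ± 13.6.

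The number of Glu6 nuclei per mouse was compared first. On Day 1 Glu6 made up 1.99, 1.78 and 1.52% of nuclei in FGF1 mice 1, 2 and 3 and 0.242, 0.972 and 1.67% in vehicle mice 1, 2 and 3. The FGF1 mice lay close together, while vehicle mouse 3 fell among them and vehicle mouse 1 far below. The means were 1.76% ± 0.233 and 0.960% ± 0.712 (SD, n = 3 mice each), and the exact two-sided permutation test gave p = 0.2 (0.4 adjusted over the 2 days), where the smallest p it allows is 0.1. With 3 nuclei of 1241 in vehicle mouse 1, the 95% Wilson interval was 0.0822% to 0.708%, which covers counting error only. On Day 5 the share was 1.35 and 1.02% in FGF1 mice 37 and 45 and 1.57 and 1.02% in vehicle mice 28 and 38, with overlapping groups and exact p = 1 (adjusted 1, smallest possible 0.333). Within the pairs of 1 FGF1 and 1 vehicle mouse that share a batch number in the metadata, FGF1 was higher in all 3 Day 1 pairs, while on Day 5 mouse 37 minus mouse 28 was -0.219 and mouse 45 minus mouse 38 0.00766 percentage points.

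**Figure D2:**
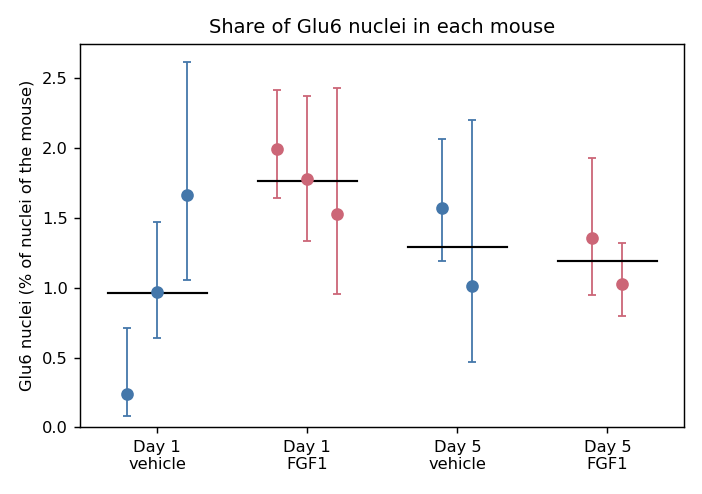
Percent of the nuclei of each mouse that were Glu6, with 95% Wilson intervals (bars) and group means (black lines), on a linear axis from 0. The Day 1 FGF1 mice lie between 1.52% and 1.99% and the vehicle mice between 0.242% and 1.67%, so the groups overlap.

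On Day 1 no gene passed the test in Glu6, and the gene with the lowest p was the long noncoding RNA Gm28905, whose function is not given in the files. With 3 FGF1 and 2 vehicle mice, 0 of 1823 genes (0%) reached a false discovery rate (FDR, Benjamini-Hochberg) below 0.05 by edgeR's quasi-likelihood test, and 0 did by DESeq2. At an unadjusted p below 0.05 edgeR counted 76 genes (4.17%), 51 higher (2.8%) and 25 lower (1.37%), and DESeq2 32. Gm28905 was at 277, 344 and 333 CPM in FGF1 mice 1, 2 and 3 and at 971, 924 and 1036 CPM in vehicle mice 1, 2 and 3. All FGF1 mice lay below all vehicle mice, and at a similar level to each other. Of the 1823 genes tested, 220 (12.1%) had CPM without overlap between the 3 FGF1 and the 3 vehicle mice. The log2 fold change was -1.65 ± 0.252 (SE) with an unadjusted p of 7.27e-05 and an FDR of 0.133. With vehicle mouse 1 and its 3 nuclei also in the fit it became the 1 called gene, at an FDR of 0.0322, and over all alternatives its FDR ran from 0.0322 to 1 and its log2 fold change from -1.69 to -1.42. Within the 3 Day 1 batches the log2 ratio of CPM was -1.90, -1.50 and -1.47. Thinned to 1382 UMIs, a Gm28905 UMI was found in 33.3, 42.2 and 47.1% of Glu6 nuclei of the FGF1 mice, in 68.2 and 77.8% of those of vehicle mice 2 and 3 and in all 3 nuclei of vehicle mouse 1, against 5.48% of astrocytes. Unthinned it was in 47.5, 60.0 and 58.8% of those of the FGF1 mice, 77.3% of those of vehicle mouse 2 and all those of vehicle mice 1 and 3. The gene lies on chromosome 10, 9976627 to 10207981, plus strand (GRCm38), is annotated as a lincRNA, and its nearest protein-coding gene, Stxbp5, is 75548 bases away.

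By Day 5 Gm28905 was at 1037 and 733 CPM in FGF1 mice 37 and 45 and 807 and 1044 CPM in vehicle mice 28 and 38, all above the Day 1 FGF1 mice. The change of its FGF1 effect from Day 1 to Day 5 was 1.57 ± 0.410 on the log2 scale, with an FDR of 0.999 by edgeR over 3025 genes. The difference between days did not pass the test.

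Among genes that were higher after FGF1 on Day 1, none of which passed, the 5 of lowest p were Stat3, Zmym1, Pde4b, Tra2a and Arhgap26. Stat3, a transcription factor activated by leptin and cytokine receptors, whose locus overlaps Stat5a on the other strand, was at 183, 208 and 167 CPM in the FGF1 mice and 102, 41.4 and 50.5 CPM in the vehicle mice. The log2 fold change was 1.99 ± 0.496 (FDR 0.998). Zmym1, a zinc finger gene, was at 497, 136 and 249.9 and 51.1, 55.2 and 25.3 CPM (2.91 ± 0.775, FDR 0.998), and Tra2a, a splicing factor, at 244, 273 and 267 and 0, 110.3 and 75.8 CPM (1.47 ± 0.409, FDR 0.998). In these 3 genes the groups did not overlap, but the vehicle values rest on few counts. Vehicle mice 1, 2 and 3 held 2, 3 and 4 UMIs of Stat3, 1, 4 and 2 of Zmym1 and 0, 8 and 6 of Tra2a. The groups did not overlap in Arhgap26 either, at 452, 825 and 899.8 against 153, 221 and 366 CPM. Pde4b, which breaks down cyclic AMP, overlapped, since vehicle mouse 1 was at 665 CPM and FGF1 mouse 1 at 541. Stat3 and Zmym1 had folds of the same sign in other neurons of these mice, which share the mice and so are no separate evidence. Zmym1 was 3.10 ± 0.620 (FDR 0.873) in Glu5 and 2.99 ± 0.361 (FDR 0.0135) in n29, and Stat3 was 1.65 ± 0.346 (FDR 0.0902) in n29. In Glu5 Stat3 overlapped, at 112, 148 and 44.9 against 124, 34.4 and 63.7 CPM. Nuclei labelled as glia in these mice differed too. Stat3 was at 261, 561 and 395 against 123, 74.6 and 154 CPM in astrocytes. Zmym1 was at 322, 105 and 199 against 34.0, 58.3 and 28.5 CPM in oligodendrocytes, where Stat3 also did not overlap. In astrocytes Zmym1 overlapped. The nuclei labelled oligodendrocytes held Gabrg3, a GABA receptor subunit, at 713 to 1227 CPM on Day 1. Other neurons held 801 to 1339 CPM of it and astrocytes 114 to 565 CPM. The part of RNA from neurons in the oligodendrocyte values was not tested.

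Below Gm28905, the lower genes of lowest p were Thap3, Ano4, Tmem181a and Pex5l, again short of the threshold. Tmem181a, a membrane protein gene that overlaps Dynlt1a on the other strand, was at 370.4, 221 and 233 CPM after FGF1 and 562, 634 and 531 CPM after vehicle without overlap (-1.04 ± 0.333, FDR 0.998), and on Day 5 it was at 201, 249, 247 and 228 CPM in FGF1 mice 37 and 45 and vehicle mice 28 and 38. Ano4, of the anoctamin family, was at 93.6, 78.0 and 66.6 against 102, 193 and 240.1 CPM. Pex5l, which binds HCN channels, was at 155, 188 and 199.9 against 102, 331 and 379 CPM. Thap3 was at -1.47 ± 0.443. In Pex5l and Thap3 vehicle mouse 1 was below the FGF1 mice.

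**Figure D3:**
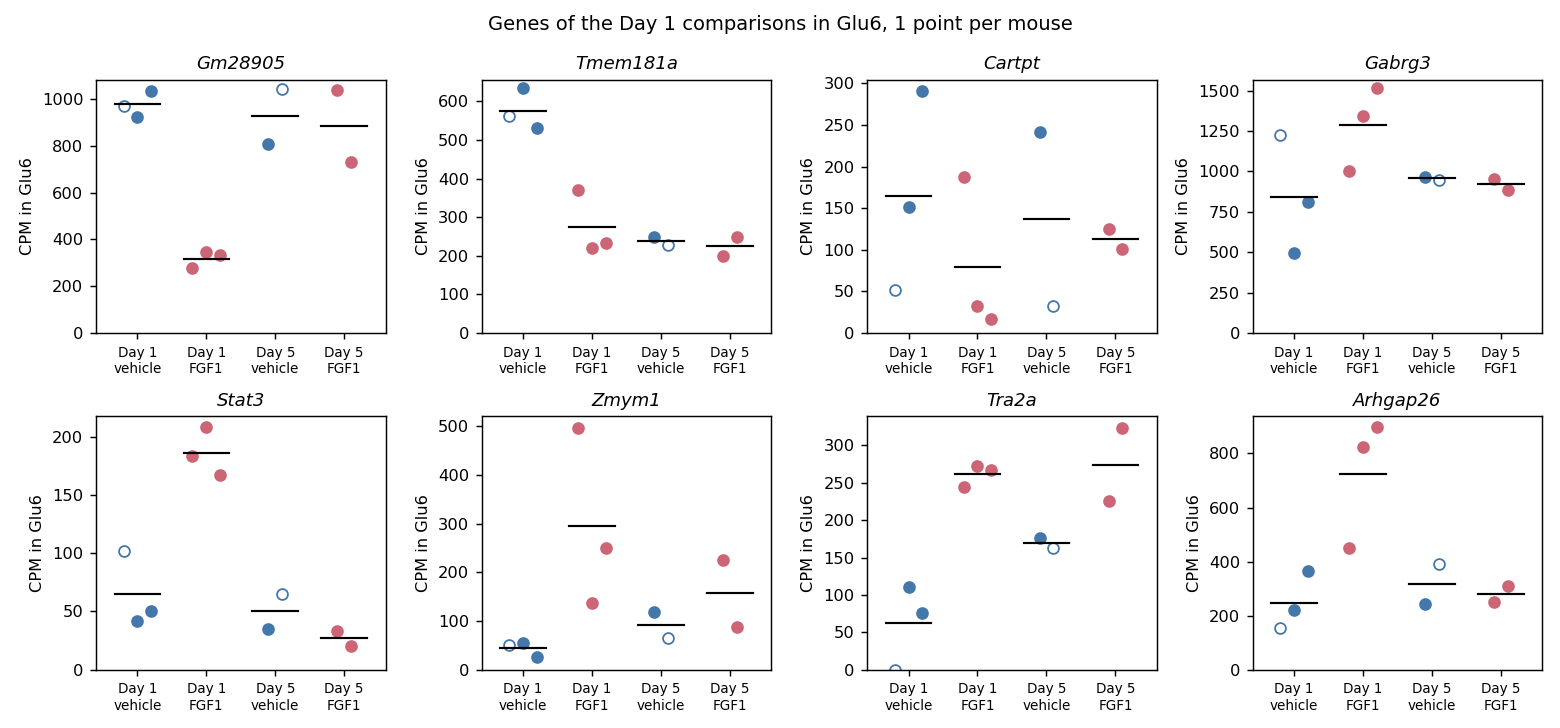
CPM of 8 genes in the Glu6 nuclei of each mouse by treatment and day, on linear axes from 0, with group means as black lines and open circles for mice with fewer than 10 Glu6 nuclei. Gm28905 lies at 277 to 344 CPM in the Day 1 FGF1 mice and at 733 or more in all other mice, while Cartpt and Gabrg3 overlap between groups.

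Whether the Day 1 effect was larger or smaller in Glu6 than in Glu5, a glutamatergic type labelled from the same published set, was tested with each mouse as a block. Of 4995 genes, 3 differed (0.0601%), namely Gm28905 and Cartpt, with a lower effect in Glu6 (0.04%), and Gabrg3, with a higher one (0.02%). The folds of Gm28905 were of opposite sign in the pair. In Glu5 it was at 454, 573 and 797 CPM in the FGF1 mice and 174, 413 and 521 CPM in the vehicle mice, groups that overlap. The FGF1 effect in Glu6 minus that in Glu5 was -1.94 ± 0.254 (FDR 6.51e-06), and it passed under all alternatives run, with a range of -2.05 to -1.84. Its own fold in Glu5, 0.69 ± 0.349 (FDR 0.963), did not pass. Not all neurons were like Glu5. In n29 Gm28905 was at 71.4, 88.5 and 127 against 256, 268 and 199.5 CPM, and in all other neurons at 197, 244 and 284 against 339, 328 and 332 CPM, both without overlap, with folds of -1.36 ± 0.269 (FDR 0.062) and -0.43 ± 0.185 (FDR 0.611). The difference of Glu6 from all other neurons was -0.88 ± 0.256, with an FDR of 0.578, and passed with relative log expression (RLE) size factors alone. Nuclei labelled oligodendrocytes were at 183, 231 and 219 against 308, 292 and 285 CPM, also without overlap. Their Gabrg3 level, given above, was near that of other neurons, and the part of RNA from neurons was not tested. In Glu4 and in astrocytes the groups overlapped.

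**Figure D4:**
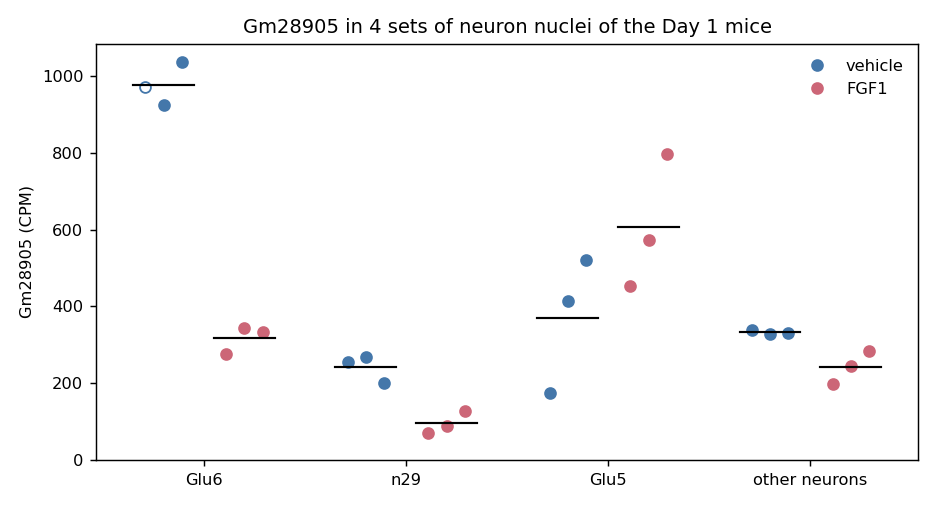
Gm28905 in CPM in Glu6, n29, Glu5 and all other neurons of the 3 vehicle and 3 FGF1 mice of Day 1, with group means as black lines, an open circle for the mouse with 3 Glu6 nuclei and a linear axis from 0. FGF1 mice lie below all vehicle mice in each set but Glu5, where FGF1 is at 454 to 797 and vehicle at 174 to 521 CPM.

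Cartpt, the precursor of CART peptides that curb feeding, was at 187, 32.5 and 16.7 CPM in Glu6 of the FGF1 mice and 51.1, 152 and 291 CPM in Glu6 of the vehicle mice. These groups overlap, and the fold in Glu6 was -1.20 ± 0.802 (FDR 0.998). In Glu5 Cartpt was at 352, 147 and 159 CPM and 49.8, 68.8 and 57.9 CPM, so that every FGF1 mouse was above every vehicle mouse. The effect in Glu6 minus that in Glu5 was -3.11 ± 0.504 (FDR 4.83e-04). Against all other neurons, where Cartpt was at 162, 65.4 and 62.0 and 27.3, 83.6 and 25.5 CPM, it was -1.91 ± 0.410 (FDR 0.037), the 1 gene called of 12250 (0.00816%). Vehicle mouse 3, with 23 UMIs, decided both calls. Without it the FDR was 0.24 against Glu5 and 0.928 against other neurons. Against other neurons the call was also lost with DESeq2, without the filter on low counts and without FGF1 mouse 2 or 3. The thinned share of nuclei with a Cartpt UMI was 16.0% in Glu6, 18.6% in Glu5 and 9.40% in astrocytes. By mouse it differed widely in Glu6, at 22.2, 4.44 and 5.88% in the FGF1 mice and 0, 18.2 and 27.8% in the vehicle mice of Day 1. FGF1 mice 2 and 3, and vehicle mouse 1 with its 3 nuclei, were thus below the astrocyte share over all mice. Within FGF1 mouse 2 the Cartpt level was also lower in Glu6 than in astrocytes, which held 72.6 CPM. In the other Day 1 mice it was higher in Glu6, with astrocytes at 12.2 CPM in FGF1 mouse 3 and 27.4 CPM in vehicle mouse 1. In both of these mice the Glu6 value is a single UMI, so it does not set Glu6 above astrocytes there.

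Gabrg3, a GABA receptor subunit, was at 1001, 1345 and 1516 CPM in Glu6 of the FGF1 mice and 1227, 496 and 809 CPM in that of the vehicle mice, where vehicle mouse 1 lay among the FGF1 mice. In Glu5 it was at 431, 378 and 324 against 1070.3, 539 and 480.4 CPM. The difference of the effects was 1.30 ± 0.274 (FDR 0.0374) over the 5 mice with 10 nuclei of Glu6, and it was lost with DESeq2, with RLE size factors and without FGF1 mouse 2, FGF1 mouse 3 or vehicle mouse 2 (FDR 9.18e-04 to 1 over all alternatives).

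Gene families were followed as lists on Day 1, beside a median log2 fold change of 0.02 over all 1823 genes tested. No member of any list was called. Of 34 tested genes of synaptic adhesion and guidance, 26 had folds above 0 and 8 below (median 0.22), and 5 were under an unadjusted p of 0.05, all higher, beside 4.17% of all tested genes in either direction and 2.8% higher. These were the neurexin relatives Cntnap5a (0.81 ± 0.266, unadjusted p 0.013) and Cntnap5b, the ephrin receptor Epha5, Nxph1 and the semaphorin Sema6d (1.48 ± 0.538, unadjusted p 0.0209). Of 16 tested cadherins and protocadherins, 13 were above 0 (median 0.32), with Pcdh7 at 0.66 ± 0.236, unadjusted p 0.0191 and Cdh10 at 0.93 ± 0.395, unadjusted p 0.0416. Of 17 glutamate receptor genes 11 were above 0 (median 0.24), of 10 GABA receptor genes 8 (0.26), of 15 potassium channel genes 10 (0.20) and of 15 sodium, calcium and HCN channel genes 10 (0.16). Summed per mouse, each of these lists overlapped between the Day 1 groups. Adhesion genes were at 41876.5, 58591 and 60067 CPM in the FGF1 mice and 47896.5, 39692 and 49277 CPM in the vehicle mice. Cadherins and protocadherins were at 10424, 13486.5 and 14913 against 10990, 8730 and 11675 CPM. Vehicle mouse 2 was the lowest Day 1 mouse in both.

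None of the 14 genes of the MAPK feedback list, whose products dampen or carry MAPK signals, had enough counts in Glu6 to be tested alone. Over all mice together they summed to 197 CPM in Glu6 and 211 CPM in other neurons. Their summed level was 289, 370.3 and 383 CPM in FGF1 mice 1, 2 and 3 of Day 1 and 153, 27.6 and 101 CPM in vehicle mice 1, 2 and 3. Every FGF1 mouse was above every vehicle mouse, on 71, 57 and 23 UMIs against 3, 2 and 8. Spred1, an inhibitor of the pathway, was at 85.5, 149 and 100 against 51.1, 0 and 12.6 CPM, and Etv5, a transcription factor at its end, at 52.9, 52.0 and 66.6 CPM against no UMI in the 3 vehicle mice. On Day 5 the sum was 126 and 108 CPM in FGF1 mice 37 and 45 and 118 and 65.3 CPM in vehicle mice 28 and 38, so the groups overlapped. All other neurons of the Day 1 mice were at 287, 325 and 324 against 173, 154 and 201 CPM, also without overlap. A sum over a list carries no test here, and 12.1% of single tested genes were without overlap. The sum of 18 immediate early genes, of which none was tested on either day, overlapped on Day 1, at 191, 143 and 100 against 51.1, 110.3 and 88.4 CPM.

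The list of 20 genes that FGF1 raised in glia was chosen on these same mice, so a separation of the groups on it is a description and no independent evidence. Each gene had a UMI in Glu6, and none reached the minimum for a test. Their sum in Glu6 was 537, 357 and 367 CPM in the FGF1 mice of Day 1 and 51.1, 41.4 and 114 CPM in the vehicle mice, without overlap. S100a6, a calcium-binding protein gene, made up 171, 39.0 and 100 CPM of the former. On Day 5 the sum was 58.6 and 114 CPM in the FGF1 mice and 58.9 and 0 CPM in the vehicle mice. All other neurons of the Day 1 mice held much the same, at 638, 344 and 361 against 58.9, 104 and 71.7 CPM. The sum of astrocyte markers in Glu6 overlapped between the Day 1 groups, at 509, 539 and 750 CPM after FGF1 and 2096, 400 and 821 CPM after vehicle, and whether RNA from glia had a part in the result was not tested.

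Fgfr2 was at 289, 305 and 249.9 CPM after FGF1 and 307, 565 and 404 CPM after vehicle on Day 1 (-0.78 ± 0.292, unadjusted p 0.0243, FDR 0.998). Pcdh15 and Kcnq3, which the study names in Agrp neurons, were not called in Glu6, at log2 fold changes of 0.51 ± 0.266 and 0.47 ± 0.286 (FDR 0.998 for both). Mt2, a metallothionein that glucocorticoids induce, was at 1.66 ± 0.521, unadjusted p 0.0111 (FDR 0.998), and Ghr and Satb1 at -0.92 ± 0.392, unadjusted p 0.0411 and -1.08 ± 0.456, unadjusted p 0.0403.

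On Day 5, 32 genes differed between the Glu6 nuclei of the 2 FGF1 mice and those of vehicle mouse 28, 5 higher and 27 lower in the FGF1 mice. Of the vehicle mice, that mouse alone had at least 10 Glu6 nuclei, so the fit assumed that it varies like the FGF1 mice do. Folds and FDRs of Day 5 below thus measure how far this 1 mouse lay from the FGF1 mice, and an effect of treatment cannot be told apart from a difference of this mouse. The calls were 0.852% of 3755 genes, 0.133% higher and 0.719% lower. When vehicle mouse 38 (6 nuclei) joined, 0 of 2788 genes were called by edgeR and 183 were under an unadjusted p of 0.05. DESeq2 on the 3 mice called 2 genes, Ly6h and Nnat, and a single fit over the 8 mice of both days called 0.

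Cox5b and Cox8a, subunits of cytochrome c oxidase, were among the genes furthest below vehicle mouse 28. Cox8a was at 25.1 and 6.72 CPM in FGF1 mice 37 and 45, 336 in vehicle mouse 28 and 0 in vehicle mouse 38 (-4.42 ± 0.587, FDR 6.08e-11). Cox5b had no UMI in either FGF1 mouse and 29 UMIs in vehicle mouse 28, at least 15.3-fold lower against a floor of 3 counts over the FGF1 mice, and no UMI in vehicle mouse 38. Cisd1, of the outer mitochondrial membrane, was at 0, 0, 129.6 and 32.6 CPM in FGF1 mice 37 and 45 and vehicle mice 28 and 38, at least 11.6-fold lower than vehicle mouse 28. In the same order of mice, the translation factor gene Eif1 was at 8.37, 20.2, 253 and 0 CPM (-4.02 ± 0.597, FDR 1.46e-08), the ferritin gene Fth1 at 16.7, 33.6, 242 and 0 CPM (-3.18 ± 0.546, FDR 2.62e-06) and the noncoding RNA Snhg20 at 25.1, 20.2, 253 and 0 CPM (-3.46 ± 0.561, FDR 4.65e-07). Nnat, an imprinted gene that lies inside Blcap on the other strand, was at 151, 155, 1031 and 196 CPM (-2.75 ± 0.341, FDR 3.07e-12). Vehicle mouse 28 was high and the other 3 mice were low in each of these. Also lower, with log2 fold changes of -5.73 to -2.99, were Gm26917, Cox6a1, Sncb (beta-synuclein) and 2210016L21Rik.

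Of the 27 lower genes, vehicle mouse 38 was nearer to the mean of the FGF1 mice than to vehicle mouse 28 in 21. It was at or below the higher FGF1 mouse in 15. These genes were picked by the distance of vehicle mouse 28 from the FGF1 mice, so a further mouse was likely to lie nearer the latter. A single UMI equals 32.6 CPM in vehicle mouse 38. Many of its values are thus near the floor, such as Cox5b (0 UMIs), Npy (1) and Sncb (2). In 23 of the 27, FGF1 mouse 1 of Day 1, which also stood apart, was above both other FGF1 mice of that day. The matching shares over all genes tested are not given, so these counts are a description and carry no test. The same 27 genes had folds below 0 in 26 cases in all other neurons of the 4 Day 5 mice, where 0 of 15983 genes were called in either direction. The 5 higher genes had folds above 0 there in all 5 cases. The share of all genes with folds below 0 is not given. Other neurons share the mice, vehicle mouse 28 among them, and so are no separate evidence. Cox8a, for example, was -2.87 ± 1.04 (FDR 0.491) in other neurons. The sum of 19 genes of oxidative phosphorylation was 1456 and 1338 CPM in the FGF1 mice, 2504 in vehicle mouse 28 and 1729.8 in vehicle mouse 38. The list holds the called genes Cox8a and Cox6a1, so its sum had to move in part with the calls. The part of this sum in the result was not tested.

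The peptides Npy, Agrp and Gal were among the lower genes. Npy was at 8.37 and 60.5 CPM in FGF1 mice 37 and 45, 283 in vehicle mouse 28 and 32.6 in vehicle mouse 38 (-2.92 ± 0.514, FDR 5.74e-06), Agrp at 16.7, 53.8, 159 and 32.6 CPM in the same order (-2.08 ± 0.539, FDR 0.0193) and Gal at 8.37, 47.0, 206 and 0 CPM (-2.77 ± 0.535, FDR 8.15e-05). A single nucleus of vehicle mouse 28 held 42 of its 48 Npy UMIs, and likewise 1 nucleus held 33 of its 35 Gal UMIs. Without the highest nucleus of each gene vehicle mouse 28 was at 35.9 CPM of Npy and 12.3 CPM of Gal, between the FGF1 mice for both genes. Agrp was spread over 12 nuclei there, with 10 of 27 UMIs in the highest. Npy and Agrp mark another neuron type. Their thinned shares were 7.45% and 11.2% of Glu6 nuclei and 20.0% and 19.2% of astrocytes, which is the level of background, and Npy was at 34.5, 156, 322 and 649.9 CPM in the astrocytes of these 4 mice.

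The 5 higher genes were Mpc1, Gm29514, Synj1, Epha6 and Alcam. Epha6, an ephrin receptor, was at 1063 and 679 CPM in FGF1 mice 37 and 45, 318 in vehicle mouse 28 and 555 in vehicle mouse 38 (1.44 ± 0.356, FDR 0.011), and Alcam, a cell adhesion molecule, at 602, 397, 194 and 228 CPM in the same order (1.34 ± 0.373, FDR 0.0417). In both, the 2 vehicle mice lay below the 2 FGF1 mice. Mpc1, of the mitochondrial pyruvate carrier, was at 134, 161, 29.5 and 196 CPM (2.30 ± 0.624, FDR 0.0354), where vehicle mouse 38 was the highest of the 4 mice, and its fold changed sign when vehicle mouse 38 stood in for vehicle mouse 28. Synj1, a lipid phosphatase of synaptic vesicle recycling, was at 201, 181, 47.1 and 163 CPM and Gm29514, an antisense RNA that overlaps Brinp3, at 117, 168, 29.5 and 97.9 CPM.

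**Figure D5:**
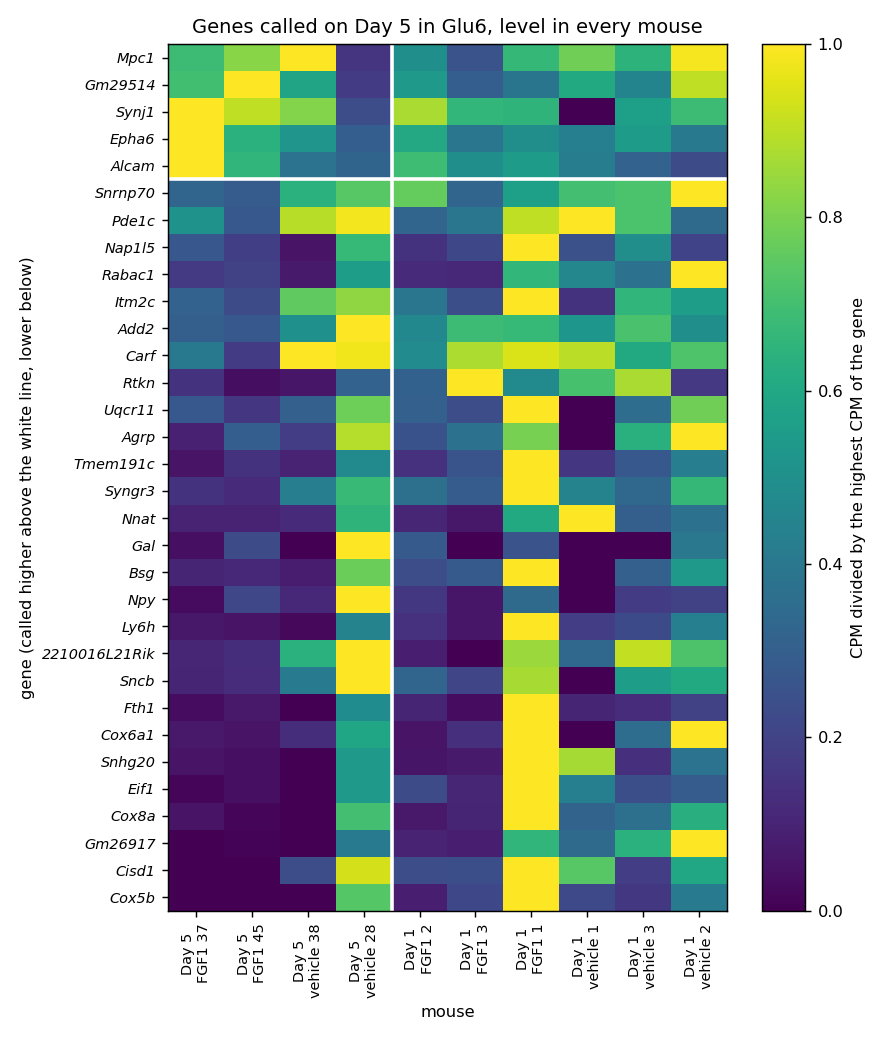
Level of the 32 genes called on Day 5 in the Glu6 nuclei of all 10 mice, as CPM divided by the highest CPM of the gene (color scale from 0 to 1), with Day 5 mice left and Day 1 mice right of the white line. In most of the 27 lower genes, below the horizontal line, vehicle mouse 28 and FGF1 mouse 1 of Day 1 are bright and vehicle mouse 38 is as dark as the FGF1 mice of Day 5.

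Among the lists on Day 5, oxidative phosphorylation and ribosomal genes mostly had folds below 0, but few or none passed the test. All these folds were taken against vehicle mouse 28 alone. Over all 3755 genes the median log2 fold change was 0.03 and 0.852% were called (0.719% lower and 0.133% higher). Of 13 tested genes of oxidative phosphorylation 12 had folds below 0 and 2 were called, Cox8a and Cox6a1 (median -0.62), and of 62 ribosomal protein genes 51 were below 0 and 0 were called (median -0.53). Cox5b, also called and also a subunit of cytochrome c oxidase, is not on the list. The ribosomal sum was 8099 and 5753 CPM in FGF1 mice 37 and 45, 9640.1 in vehicle mouse 28 and 8616 in vehicle mouse 38, which lay nearer to FGF1 mouse 37 than to vehicle mouse 28. Of 9 tested neuropeptides 7 were below 0 and 3 were called (median -1.11). These were Npy and Agrp, at background in Glu6, and Gal, with most UMIs of vehicle mouse 28 in a single nucleus for Npy and for Gal. Of 39 genes of synaptic adhesion and guidance 28 were above 0 and 1, Epha6, was called (median 0.26), and of 17 cadherins and protocadherins 14 were above 0 and 0 called (median 0.28). Of 13 peptide and hormone receptors 12 were above 0 and of 17 potassium channel genes 13, with 0 called in both. Tac1 and Htr2c did not pass on either day. Tac1 was at 0.13 ± 0.661 on Day 1 and -0.23 ± 0.304 on Day 5, and Htr2c at 0.06 ± 0.255 and 0.39 ± 0.297. The lists of glutamate receptors, GABA receptors, transcription factors, FGF genes, heat shock genes, glucocorticoid-responsive genes and late activity genes also held 0 called genes.

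Whether the FGF1 effect differed between Day 5 and Day 1 was tested in Glu6 over all 10 mice. Of 3025 genes 0 were called (0%), with 117 (3.87%) under an unadjusted p of 0.05 by edgeR and 53 by DESeq2, which also called 0. Besides Gm28905, the genes of lowest p with a higher effect on Day 5 were Kcnmb2, a potassium channel subunit (2.67 ± 0.819), and Ptprz1, a receptor phosphatase (1.71 ± 0.529). Those with a lower effect were Cisd1 (-6.91 ± 1.80) and Sema6d (-2.59 ± 0.712), all at an FDR of 0.999. Cisd1 had no UMI in either Day 5 FGF1 mouse, so its fitted value gives a direction and no reliable size. Sema6d, an axon guidance ligand, was at 118, 240.4 and 150.0 CPM after FGF1 and 51.1, 55.2 and 63.2 CPM after vehicle on Day 1, and at 83.7 and 114 and 242 and 131 CPM on Day 5, so its groups changed order between the days without passing the test.

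Day 5 was also compared with all other neurons, a comparison added after the data were seen, over the 4 mice with each as a block. Of 11212 genes 1 was called (0.00892%), Pmch, the precursor of melanin-concentrating hormone, whose locus overlaps Parpbp on the other strand, with a difference of 2.95 ± 0.498 (FDR 3.82e-05). In Glu6 it was at 58.6 and 309 CPM in the FGF1 mice and 58.9 and 32.6 CPM in the vehicle mice, and in other neurons at 238 and 178 and 485 and 170.4 CPM. A single nucleus of FGF1 mouse 45 held 37 of its 46 Pmch UMIs, and without that nucleus the mouse was at 62.8 CPM. This mouse decided the value: without it the difference was 0.99 with an FDR of 1. The FDR was also above 0.05 without vehicle mouse 28 or 38 and by DESeq2, which called 0 genes. A thinned 9.74% of Glu6 nuclei and 29.1% of astrocytes had a Pmch UMI, which places the Glu6 share at background.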

How the data were processed

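Nuclei of 10 mice were profiled with 10x 3′ v2 chemistry. The authors counted UMIs with Cell Ranger 1.2 against GRCm38 with introns included, ran no doublet caller on nuclei, removed nuclei of low silhouette score, integrated the libraries with Seurat and labelled clusters by label transfer. The deposited matrix holds raw UMI counts per gene and nucleus, and the deposited metadata hold the cell type, library and batch number and the confidence of the first label as a fraction. What the batch number stands for is not given in the sources used here. The deposited log-scaled matrix and the whole-cell data were not used. The matrix holds more nuclei than the study states. Its cell type labels include one for nuclei filtered by silhouette score. Nuclei with that label were counted among all nuclei of a mouse, but not among neuron nuclei. As a percent of neuron nuclei, the Glu6 share differed by 0.952 percentage points on Day 1 (FGF1 minus vehicle, exact permutation p = 0.2). On Day 5 it differed by -0.0928 percentage points.

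The Glu6 counts were summed per mouse, no further doublet calling was done, and the sums were tested with edgeR 4.0.16 (TMM scaling, filterByExpr, robust quasi-likelihood fit, Benjamini-Hochberg over all genes tested, FDR threshold 0.05). SE is the log2 fold change divided by the square root of F. DESeq2 1.42.0 was an alternative. Mice with fewer than 10 Glu6 nuclei were left out of the Day 1, Day 5 and Glu5 comparisons, and all mice entered the comparisons with other neurons and between days. Shares of nuclei were compared by exact permutation over mice. The code was tested on simulated data. Glu6 and the gene lists were chosen with earlier results of these data known. Named genes were, in each comparison, up to 10 called genes with the highest and 10 with the lowest fold and otherwise the 5 of lowest p in each direction, the 20 leading genes by ratio, Slc17a6, Tac1 and Htr2c, and the called and up to 4 highest members of each list. Other genes were named after their values were seen. Positions are from GENCODE on GRCm38.

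Replicate numbers 1 to 3 are shared by the Day 1 groups in the labels. In neurons other than Glu6 the deviations of same-numbered mice correlated at -0.24, -0.36 and 0.40, so the numbers were not taken to pair the mice. Those of Day 1 mice with the same batch number correlated at -0.48, 0.08 and -0.54. Values within batches are thus given as a description, with no pairing shown.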

Additional observations from a re-analysis of the deposited data

Results flagged for a closer look

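For 5 results the FGF1 effect in Glu6 differed from that in another set of neurons by a test of the difference itself. Against Glu5 on Day 1 the log2 difference was -1.94 for Gm28905, -3.11 for Cartpt and 1.30 for Gabrg3. Against all other neurons it was -1.91 for Cartpt on Day 1 and 2.95 for Pmch on Day 5. Gm28905 alone of the 4 genes kept its call under every alternative run for that comparison. Its difference from all other neurons, -0.88, did not pass (FDR 0.578). In n29 and in all other neurons together it was also lower after FGF1 without overlap, so the change was not shown to be particular to Glu6. Cartpt rested on vehicle mouse 3 and Pmch on FGF1 mouse 45, where 1 nucleus held most of its UMIs, with the values given beside each result, and Gabrg3 was lost with DESeq2, with RLE size factors and without FGF1 mouse 2, FGF1 mouse 3 or vehicle mouse 2. Groups of 2 or 3 mice are too small to test a single mouse as an outlier.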

How the results depend on the processing

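On Day 1 the 0 calls in Glu6 became 2 without the filter on low counts (Sst and Zmym1), 4 with the replicate number as a block (Cox8a, Gm26917, Nnat and Rabac1), 1 with every mouse (Gm28905) and 0 to 3 when 1 mouse was left out: 3 without FGF1 mouse 1 (Gm26917, Gm28905 and Nnat) and 1 without vehicle mouse 2 (Sst). Day 5 labels share no replicate numbers, so no replicate block was fitted there. The 32 calls of Day 5 became 2 with DESeq2, and 0 with all 4 groups in 1 fit, with at least 5 nuclei per mouse, or with at least 5 nuclei per mouse and batch as a block together. With at least 5 nuclei per mouse and 1 mouse left out they ranged from 6 without vehicle mouse 28 to 32 without vehicle mouse 38, with 11 without FGF1 mouse 37 and 8 without FGF1 mouse 45. Mpc1 turned to -0.29 without vehicle mouse 28. The Day 5 fit of 3 mice was not run with 1 of them left out, since no 2 mice of 1 group would remain beside a vehicle mouse or no vehicle mouse would.

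Without the filter, the comparison between days gave 5 calls and that with Glu5 also 5. Against other neurons on Day 1, the 1 call became 0 with DESeq2, 2 with RLE size factors, 0 without the filter and 0 to 2 with 1 mouse left out, when vehicle mouse 3 left a call of another gene, Cntnap5b. On Day 5 it became 0 with DESeq2, 2 with RLE and 0 to 6 with 1 mouse left out (0 without FGF1 mouse 45, 6 without vehicle mouse 28, 2 without vehicle mouse 38), and the difference for Gal ran from -4.20 to 9.52, above 0 without vehicle mouse 28. The Day 5 difference in the share of nuclei ran from -0.384 to 0.172 percentage points with 1 mouse left out, and was above 0 without FGF1 mouse 45 (0.0593) or vehicle mouse 28 (0.172). The Day 1 difference, 0.446 to 1.16, kept its sign. Over single named genes, called or not in the main fit, 85 alternative values lost a call, 12 gained one and 2 reversed. The other 547 kept their direction and stayed called or stayed uncalled. They include genes that never passed, and fits that held the same mice and nuclei as the main fit. They thus do not measure how stable the calls were. The alternatives with every mouse, with batch, with at least 10 nuclei between days and with at least 5 nuclei and 1 mouse left out, and the Day 5 comparison with other neurons, were chosen after seeing the data. Causes were not tested. The 3 nuclei of vehicle mouse 1 and the 6 of vehicle mouse 38 limit both days.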
